A study of Danio rerio with 4 samples.

Results

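Claudins are the membrane proteins that seal tight junctions, and the family is described here in the skin of male zebrafish of 3 ages. Members are all rows of the deposited counts table whose gene symbol starts with cldn in any case, without those that start with cldnd. This gave 38 genes of 32105 rows, and all 38 had at least 1 count in some library. The 3 rows left out were cldnd1a and CLDND1, named for a claudin domain, and cldnd, which is itself named as a claudin but had only 1 count at 5 months, 4 and 1 in the 24-month pair, and 13 at 30 months. Symbols came from a table of gene names, so some members carry human-style names, and 6 members share a symbol with another member and are given with their identifier.

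In epithelia, claudins of neighbouring cells bind each other across the gap between the cells. Some claudins tighten this paracellular path and others form pores that let ions or water through, so the mixture of claudins sets how leaky an epithelium is. Fish carry more claudin genes than mammals, and fish epidermis faces water directly without a dead cornified layer, so its barrier depends on living cells and their junctions. In mice, loss of claudin-1 from the epidermis leads to fatal water loss.

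RNA was measured in 4 libraries of male skin: a single one of 5 months, a pair of 24 months (replicates 1 and 2) and a single one of 30 months. The 5-month and 30-month libraries carry the strain name AB JxTu, and both 24-month libraries come from AB JxTu Tg(wt1b:GFP), a line that carries a green fluorescent reporter for wt1b. Strain and age therefore cannot be told apart at 24 months. Whether fish were pooled for a library, and whether the 24-month pair came from separate fish, is not in the labels. Library totals lay between 11833498 (24 months replicate 2) and 20441260 counts (30 months). Levels are counts scaled to a common library total with TMM factors (CPM), which assume that most genes do not differ between libraries. Claudins are ranked against each other as CPM per kilobase of gene length. The limit of 5 CPM for members described by library, the sums and the ranking of marker genes by mean use CPM without length. Where a gene had 0 counts, its level could still be 0.144 CPM at 5 months, 0.130 and 0.310 CPM in 24 months replicates 1 and 2, and 0.158 CPM at 30 months (the worth of 3 counts, which covers counting error only). Markers of keratinocytes, the main cells of the epidermis, summed to between 24917 and 58800 CPM over 10 genes in all libraries. Markers of several other organs differed widely between libraries, and their values are given beside the claudins they move with. In bulk RNA, fewer cells of a type and less RNA per cell cannot be told apart.

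Skin claudin RNA was dominated by a few members. Per kilobase, cldnb (ENSDARG00000009544) had the highest mean level, with 531.5 CPM per kilobase at 5 months, 476.7 and 1743 in 24 months replicates 1 and 2, and 758.8 at 30 months. In zebrafish cldnb is best known from the lateral line, whose migrating primordium is marked by its reporter fish. Next came cldni (ENSDARG00000054616), with 295.8 CPM per kilobase at 5 months, 497.1 and 914.0 in 24 months replicates 1 and 2, and 468.1 at 30 months. Together cldnb and cldni made up 62.8% to 68.7% of the summed claudin level per kilobase in the 4 libraries. cldnb was the higher of the pair in 3 libraries, while in 24 months replicate 1 the ratio of cldnb to cldni per length was 0.959. The next members by mean level per kilobase were cldna (172.4), cldn1 (130.9), cldn7b (110.2), cldne (86.6) and cldn7a (63.8). These 7 genes held 88.2% to 94.3% of the summed level per kilobase, and the other 31 shared what was left.

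**Figure D1:**
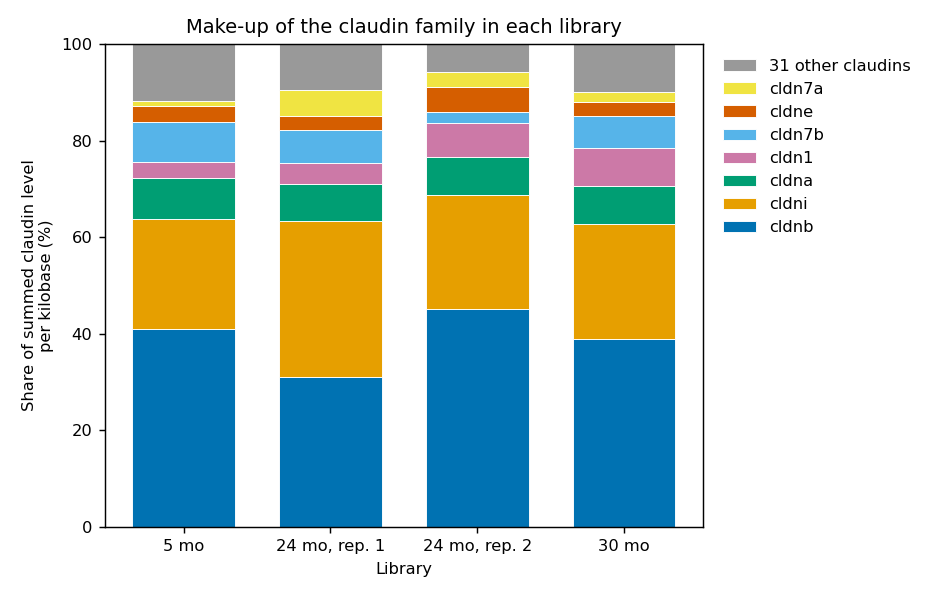
Stacked bars give each claudin's share (%) of the summed claudin level per kilobase in the 4 libraries, with the 7 highest members by mean and the other 31 together. cldnb and cldni fill 62.8% to 68.7% of every bar, and the cldn7a segment is smallest at 5 months, where it is 1.02%.

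Of the 38 members, 20 had a mean of at least 5 CPM over the 4 libraries and are described with each library's value. The lowest of them was CLDN5 (ENSDARG00000043716), with a mean of 5.38 CPM, and the highest below the limit was CLDN11 (ENSDARG00000030723), with 4.91 CPM. High and low members lie side by side in the genome, as the RefSeq annotation of a later assembly (GRCz12tu) orders the genes. In a run of 4 neighbouring claudin genes, cldna (172.4 CPM per kilobase on average) and cldne (86.6) stood beside cldnf (9.83) and cldnj (0.0171), a gene known from the zebrafish inner ear. Between cldna and cldne the ratio per length was 2.59 at 5 months, 2.59 and 1.52 in 24 months replicates 1 and 2, and 2.72 at 30 months. In a run of 7, cldnb (877.5 CPM per kilobase) stood near cldn3c (27.1), cldn30 (9.46), cldn3d (6.26) and cldn29 (1.18). The other 2 genes of this run were cldnd and cldn28, which are not members here.

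The abundant epithelial claudins were mostly highest in 24 months replicate 2. cldnb stood at 588.4 CPM at 5 months, 527.7 and 1929 CPM in 24 months replicates 1 and 2, and 840.0 CPM at 30 months. cldni stood at 530.3, 891.3, 1639 and 839.3 CPM in the same libraries. Both were highest in replicate 2, and the other 3 libraries lay closer together. cldna had 216.9 CPM at 5 months, 224.7 and 597.5 CPM in 24 months replicates 1 and 2, and 300.5 CPM at 30 months. cldne, which zebrafish embryos need for the spreading of the outer epithelium in epiboly, had 89.7 CPM at 5 months, 92.9 and 420.7 CPM in the 24-month replicates, and 118.2 CPM at 30 months. For cldne the 5-month, first 24-month and 30-month libraries thus lay close together below replicate 2. cldn8.2, whose mammalian counterpart CLDN8 tightens the distal nephron and colon, stood at 29.0, 35.9, 121.7 and 58.8 CPM. cldn30 stood at 17.3, 10.7, 32.7 and 14.9 CPM and cldnf at 22.1, 15.6, 31.5 and 25.4 CPM, so these lesser members also peaked in replicate 2.

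The 2 members named for claudin-7, a basolateral claudin that binds EpCAM in mammals, differed in their pattern. cldn7b was among the steadiest members, at 226.7 CPM at 5 months, 222.1 and 194.6 CPM in 24 months replicates 1 and 2, and 273.9 CPM at 30 months, a span of 1.41-fold. cldn7a (ENSDARG00000036376) stood at 26.7 CPM at 5 months, 168.3 and 241.8 CPM in the 24-month replicates, and 77.5 CPM at 30 months, a span of 9.06-fold. Both 24-month libraries lay above 5 and 30 months for cldn7a. Per length, the ratio of cldn7a to cldn7b was 0.122 at 5 months, 0.783 and 1.28 in the 24-month replicates, and 0.292 at 30 months. cldn1 (ENSDARG00000040045), named for the claudin of the mammalian epidermal barrier, stood at 30.0 CPM at 5 months, 49.5 and 194.7 CPM in the 24-month replicates, and 111.3 CPM at 30 months. For cldn1 the 5-month library was lowest, and 30 months lay inside the range of the 24-month pair.

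**Figure D2:**
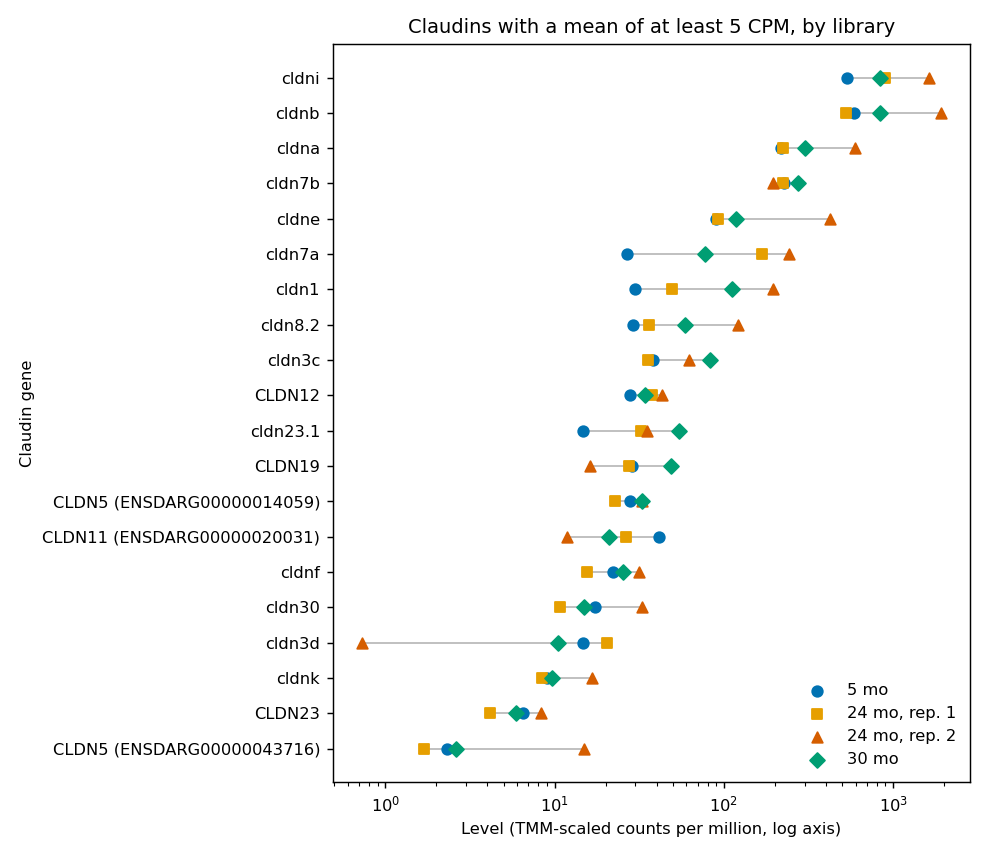
Each row is 1 of the 20 claudins with a mean of at least 5 CPM, and each symbol is the level in 1 library (TMM-scaled CPM, log axis), joined by a grey line from lowest to highest. 24 months replicate 2 is the highest point in 13 rows, the row of cldn3d has it far to the left at 0.724 CPM, and cldn7b, CLDN5 (ENSDARG00000014059), CLDN12 and cldnk span less than 2-fold.

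Among the other epithelial members, cldn23.1 and cldn3c were highest at 30 months. cldn23.1 stood at 14.7 CPM at 5 months, 32.5 and 34.9 CPM in 24 months replicates 1 and 2, and 54.1 CPM at 30 months. Its 24-month pair lay close together, between the levels of 5 and 30 months. cldn3c, named for a barrier-forming claudin of many mammalian epithelia, stood at 38.1, 35.4, 62.3 and 83.2 CPM. CLDN12, a member whose mammalian protein lacks the usual tail that binds junction scaffolds, varied little, at 27.7, 37.8, 42.9 and 34.3 CPM. CLDN23 was low throughout, at 6.48, 4.13, 8.27 and 5.93 CPM.

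cldn3d (ENSDARG00000015955) was far lower in 24 months replicate 2 than elsewhere, and cldn7b, CLDN19 and CLDN11 (ENSDARG00000020031) were also lowest there among the 20 members. It stood at 14.7 CPM at 5 months, 20.4 and 0.724 CPM in 24 months replicates 1 and 2, and 10.5 CPM at 30 months, from 307, 470, 7 and 200 counts. Per length, cldn3c was 78.9 times as high as cldn3d in replicate 2 and 1.59 to 7.27 times in the other libraries. A list of 8 liver genes had the same low library, with summed levels of 155.4 CPM at 5 months, 653.8 and 1.76 CPM in the 24-month replicates and 160.4 CPM at 30 months. Of these liver genes 3 were at 0 in replicate 2 and none elsewhere. Mucous cell markers, 8 genes, summed to 968.8 CPM at 5 months, 451.0 and 251.7 CPM in the 24-month replicates and 838.0 CPM at 30 months. The sums for germ cell, kidney tubule, Schwann cell and myelin, and skeletal muscle markers were also lowest in replicate 2. The part of RNA from any of these sources in the cldn3d values was not tested.

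Several members are known from cells other than keratinocytes. CLDN5 seals endothelium, in mammals above all at the blood-brain barrier. CLDN5 (ENSDARG00000014059) stood at 28.0 CPM at 5 months, 22.7 and 32.8 CPM in 24 months replicates 1 and 2, and 33.0 CPM at 30 months. The second row of this symbol, ENSDARG00000043716, stood at 2.30, 1.69, 14.9 and 2.63 CPM, so only in replicate 2 did it come near the first. Per length, the first was 11.5 to 12.7 times as high as the second in 3 libraries and 2.08 times in replicate 2. The 12 endothelial markers summed to 291.3 CPM at 5 months, 312.5 and 385.4 CPM in the 24-month replicates and 395.0 CPM at 30 months, none of them at 0. The highest of them by mean were kdrl, at 63.6, 54.0, 58.0 and 67.9 CPM, and plvapb, at 38.6, 52.5, 57.2 and 55.3 CPM. Of the 12 markers 9 were higher and 3 lower in replicate 2 than in replicate 1, with a median log2 difference of 0.11. The part of endothelial content in the CLDN5 values was not tested.

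The myelin claudins were present at low levels in all libraries. CLDN19, which in mice seals the myelin of Schwann cells and also acts in the kidney, stood at 28.5 CPM at 5 months, 27.5 and 16.1 CPM in 24 months replicates 1 and 2, and 48.5 CPM at 30 months. cldnk, which in zebrafish marks myelinating glia, stood at 9.02, 8.43, 16.7 and 9.66 CPM. The 2 genes peaked in different libraries, CLDN19 at 30 months and cldnk in replicate 2. The 9 Schwann cell and myelin markers summed to 576.4 CPM at 5 months, 319.2 and 298.6 CPM in the 24-month replicates and 615.9 CPM at 30 months, with none at 0. CLDN11 is the claudin of central myelin and of Sertoli cells in mammals. CLDN11 (ENSDARG00000020031) stood at 41.2 CPM at 5 months, 26.3 and 11.8 CPM in the 24-month replicates, and 21.0 CPM at 30 months, and was the only one of the 20 members that was highest at 5 months. Per length it was 19.7 times as high as the other CLDN11 at 5 months, 21.4 and 3.12 times in the 24-month replicates, and 10.5 times at 30 months. Sertoli and Leydig cell markers summed to 397.9 CPM at 5 months, 297.1 and 248.8 in the 24-month replicates, and 89.5 at 30 months. In replicate 2 most of that sum came from both SOX9 genes and hsd3b1. In the same library order, amh stood at 46.6, 24.4, 1.76 and 3.15 CPM and gsdf at 87.7, 66.9, 0.931 and 4.15 CPM. Of the 9 markers with at least 5 CPM, 3 were higher and 6 lower in replicate 2 than in replicate 1. The part of RNA from any of these cells in the values of CLDN19, cldnk and CLDN11 was not tested.

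Of the 18 members with lower means, 11 were at 0 in 24 months replicate 2, 4 in replicate 1, 1 at 5 months and 4 at 30 months. Replicate 2 is also the library with the fewest counts. The 7 that did not pass the filter of the test (cldn15lb, cldn23l, cldn15la, cldn26, cldn10e, cldnj and CLDN10 ENSDARG00000058937) had 2 to 12 counts over all libraries and at most 10 in 1 library. CLDN11 (ENSDARG00000030723) stood at 4.51 CPM at 5 months, 2.65 and 8.17 CPM in the 24-month replicates, and 4.31 CPM at 30 months. cldn15b, named for a claudin that in the mammalian gut forms cation pores, had 20, 34, 2 and 70 counts. cldn29, cldn33b, cldn10d, cldn10l2 and CLDN8 had means between 0.232 and 1.27 CPM. Of those named for claudin-10 among them, cldn10l2 had 20, 4, 1 and 2 counts, most at 5 months. cldn10d went the other way, with 3, 0, 13 and 10 counts.

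The pore-forming claudins CLDN2 and CLDN10, known from mammalian kidney tubules, were detected mainly in the 5-month library, CLDN2 also in 1 of the 24-month replicates. CLDN2 (ENSDARG00000044387) had 233 counts at 5 months (11.2 CPM), 164 and 4 counts in 24 months replicates 1 and 2 (7.13 and 0.414 CPM), and 1 count at 30 months (0.0525 CPM). CLDN10 (ENSDARG00000104528) had 86 counts at 5 months (4.13 CPM), 4 and 0 counts in the 24-month replicates, and 0 at 30 months. Over the 24-month pair CLDN10 was lower than at 5 months, with a ratio of 33.7 (5 over 24 months, exact 95% counting interval 12.7 to 126.6). At 30 months it was at least 26.2-fold lower than at 5 months, with 3 counts in place of 0. CLDN2 was lower at 30 than at 5 months, with a ratio of 213 (5 over 30 months, counting interval 37.9 to 8450). cldn18, a claudin of stomach and lung in mammals, had 25, 28, 0 and 1 counts, and cldng had 11, 39, 0 and 0 counts. So CLDN2, cldn18 and cldng were detected mainly in the 5-month library and 24 months replicate 1, and CLDN10 mainly at 5 months.

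Kidney tubule markers were highest at 5 months, as CLDN10 was. Germ cell markers were higher at 5 months and in 24 months replicate 1 than in the other libraries, as CLDN2, cldn18 and cldng were. Of these claudins cldn18 and cldng were low, at 1.2 and 0.528 CPM at 5 months and 1.22 and 1.69 CPM in replicate 1. For cldng the 0 counts of replicate 2 could still stand for 0.31 CPM, not far below its level at 5 months. The sums for Sertoli and Leydig cells and for intestine followed these claudins less closely. The 13 kidney tubule markers summed to 418.0 CPM at 5 months, 19.6 and 10.4 CPM in 24 months replicates 1 and 2, and 17.5 CPM at 30 months, with 0, 1, 7 and 5 of them at 0. The highest of them by mean was SLC22A2. It stood at 86.8 CPM at 5 months, 4.69 and 7.86 CPM in the 24-month replicates, and 13.9 CPM at 30 months. SLC22A2 made up most of the sum in replicate 2 and at 30 months. CDH17, the next by mean, stood at 78.0 CPM at 5 months and at no more than 0.42 CPM in any other library. In edgeR 6 of the 12 tested markers were called lower at 24 than at 5 months, beside 18 of all 21535 genes tested. The marker lists were chosen with earlier results of these data known, so counts of called markers describe the lists and do not test them. The 9 germ cell markers summed to 853.6 CPM at 5 months, 846.2 and 2.28 CPM in the 24-month replicates, and 13.4 CPM at 30 months. Of them 6 were at 0 in replicate 2 and 1 at 30 months. In edgeR 7 of the 9 were called lower at 30 than at 24 months, beside 119 of all 21535 genes tested. These calls rest on replicate 1, because the germ cell sum of replicate 2 lay below that of 30 months. The list for Sertoli and Leydig cells of the testis (11 genes) summed to 397.9, 297.1, 248.8 and 89.5 CPM, with 4 at 0 in replicate 2 and 2 at 30 months. In replicate 2 most of that sum came from both SOX9 genes and hsd3b1, while amh and gsdf stood at 1.76 and 0.931 CPM. Of the 9 with at least 5 CPM, 3 were higher and 6 lower in replicate 2 than in replicate 1 (median log2 difference −5.39). The median for all genes at that level was 0.17. In edgeR 4 of the 11 were called lower at 30 than at 24 months, beside the same 119 genes. These were DMRT1, STAR, CYP17A1 and insl3, at no more than 0.414 CPM in replicate 2, so the calls also rest on replicate 1. The 8 intestine markers summed to 40.2, 19.9, 26.3 and 41.2 CPM, with 1, 1, 5 and 2 at 0. The part of RNA from these organs in the values of CLDN2, CLDN10, cldn18 and cldng was not tested.

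**Figure D3:**
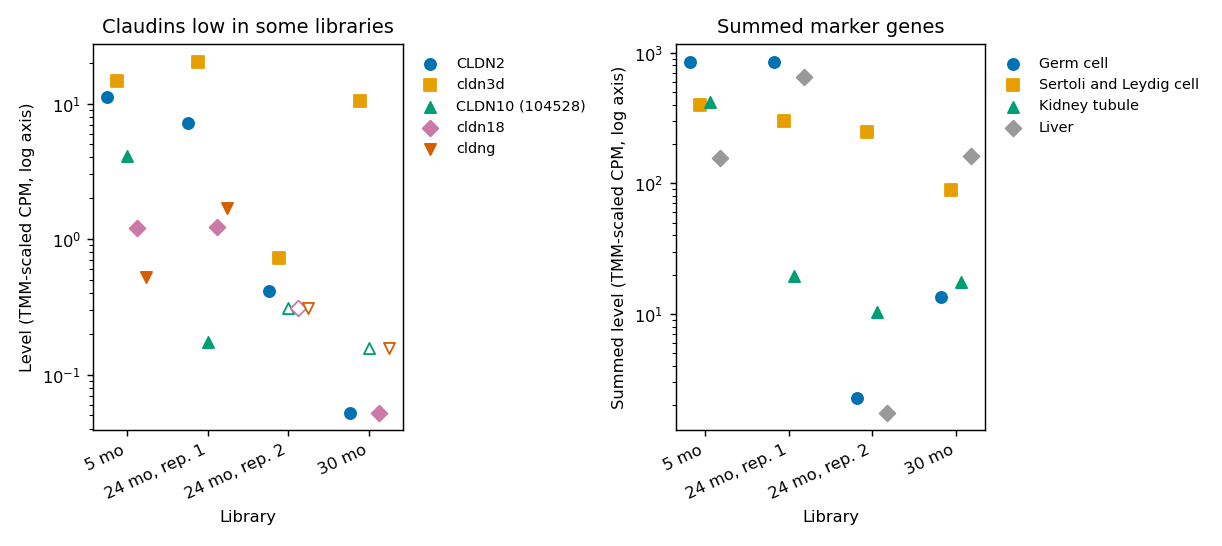
The left panel gives CLDN2, cldn3d, CLDN10 (ENSDARG00000104528), cldn18 and cldng in each library, and the right panel the summed level of 4 marker lists (both TMM-scaled CPM on log axes, with symbols offset sideways for legibility). Open symbols are counts of 0 drawn at the level that 3 counts would give; CLDN10 and the kidney tubule markers are highest at 5 months, and cldn3d and the liver markers are lowest in 24 months replicate 2.

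The comparison of 24 with 5 months sets old fish of the reporter strain beside young adults of AB JxTu, so age and strain differ together. No claudin passed at an adjusted p of 0.05 in edgeR's quasi-likelihood test, where 0.125% of 21535 tested genes did. The spread in this test comes from the 24-month pair, the only age with replicates. Below an unadjusted p of 0.05 lay 2 of the 31 claudins that passed the filter, both higher, beside 2.03% of all genes tested in either direction and 0.892% on the higher side. These were cldn7a, with a log2 fold change of 2.94 (SE 1.02, edgeR adjusted p = 0.954), and cldn1, with 2.02 (SE 0.95, edgeR adjusted p = 1). For cldn7a both replicates lay above 5 months, at log2 differences of 2.65 and 3.17. For cldn1 they lay 0.72 and 2.69 above, so the value rests largely on replicate 2. In DESeq2 the adjusted p of cldn7a was 0.0817 at a log2 fold change of 3.02, and no claudin passed there or in limma-voom.

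The remaining abundant members had log2 fold changes of 1.25 (SE 1.26) for cldni, 1.06 (SE 1.25) for cldnb, 0.92 (SE 1.02) for cldna, 1.52 (SE 0.97) for cldne and −0.12 (SE 0.92) for cldn7b between 24 and 5 months. For cldnb, cldna and cldne replicate 1 alone differed from 5 months by −0.16, 0.05 and 0.05, while replicate 2 alone differed by 1.71, 1.46 and 2.23. At least 2-fold above 5 months lay 2 of the 20 members in replicate 1, where 7.21% of all genes at that level did, and 9 in replicate 2, where 20.7% did. At least 2-fold below lay 0 and 2 of them, beside 9.48% and 22.5% of all genes. Of the 20 members with at least 5 CPM, both 24-month libraries lay above the 5-month library in 8 and below it in 3. Among all 13182 genes at that level the shares were 31.3% and 31.6%. Other members also had wide errors, with −1.11 (SE 0.97) for CLDN11 (ENSDARG00000020031), −5.27 (SE 2.99) for CLDN10 (ENSDARG00000104528) and −0.47 (SE 1.21) for cldn3d. For cldn3d the value was −4.33 without replicate 1 and 0.47 without replicate 2. Of the 31 claudins that passed the filter 20 were higher, beside 47.7% of all genes tested. The median log2 fold change was 0.36, beside −0.06 for all genes tested. Without replicate 2 this median was −0.03. With library totals alone it was 0.07, beside −0.26 for all genes tested with the same scaling.

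The comparison of 30 with 24 months also spans both age and strain, and it shares the 24-month libraries with the comparison before it. No claudin passed in edgeR, beside 0.683% of all genes. CLDN2 was the only claudin with an unadjusted p under 0.05, beside 4.76% of all genes in either direction and 2.97% on the lower side, with a log2 fold change of −6.00 (SE 2.42, edgeR adjusted p = 0.534). It had 1 count at 30 months and 168 over the 24-month pair, a ratio of 97.9 (24 over 30 months, counting interval 17.3 to 3890). Of those 168 counts 164 came from replicate 1, and without replicate 1 the log2 fold change was −2.81. cldn7a had a log2 fold change of −1.40 (SE 0.93), cldne of −1.12 (SE 0.95; 0.35 without replicate 2) and CLDN19 of 1.15 (SE 0.92), and none of these passed the test. The 30-month library lay below both 24-month libraries in 3 of the 20 members and above both in 5, beside 32.4% and 31.1% of all genes at that level. The median of the 31 claudins was −0.37, beside −0.14 for all genes tested, but without replicate 2 it was 0.35.

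**Figure D4:**
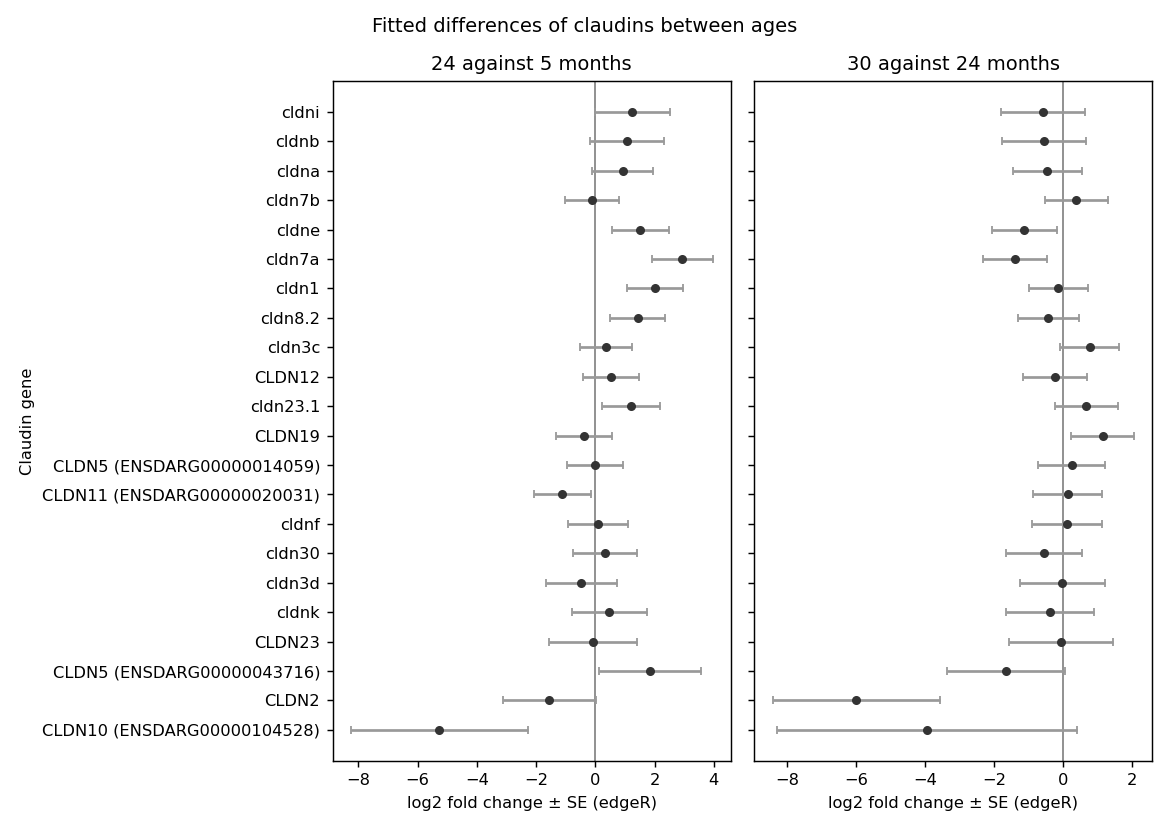
Points give the edgeR log2 fold change of each claudin with its standard error for 24 against 5 months (left) and 30 against 24 months (right), for the 20 members of at least 5 CPM and for CLDN2 and CLDN10 (ENSDARG00000104528). cldn7a at 2.94 lies farthest to the right and CLDN10 at −5.27 farthest to the left on the left panel, and CLDN2 at −6.00 farthest to the left on the right panel.

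Between 30 and 5 months, 2 single libraries of the same strain name, differences were taken without a test. Of the 20 members with at least 5 CPM, 5 stood 2-fold or more above 5 months at 30 months and 0 stood as far below, beside 12.2% and 14.8% of all genes at that level. The log2 differences of these 5 were 1.89 for cldn1, 1.87 for cldn23.1, 1.53 for cldn7a, 1.13 for cldn3c and 1.02 for cldn8.2, and with library totals alone 3 of the 20 reached 2-fold. The 24-month pair differed by 1.97, 0.10, 0.52, 0.81 and 1.76 in the same genes, so cldn1 and cldn8.2 differed more within that pair than between 30 and 5 months. In 5 of the 20 members the difference between 30 and 5 months was larger in size than that between the 24-month replicates. CLDN19 was level after rounding, at 0.77 and −0.77. For this count, and for the 3 of the 20 with library totals alone, the share of all genes was not computed. The median over the 20 was 0.35, beside 0.06 for all genes.

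For a straight trend over age no claudin passed, where 0% of all genes did, and 1 claudin lay below an unadjusted p of 0.05, on the lower side, beside 1.56% of all genes in either direction and 0.989% on the lower side. That claudin was CLDN10 (ENSDARG00000104528), with a log2 slope of −3.01 per 10 months (SE 0.93, edgeR adjusted p = 1), which rests on the 86 counts of the 5-month library. The slopes of cldn7a, cldn1 and cldn23.1 were 1.10 (SE 0.57), 0.88 (SE 0.46) and 0.71 (SE 0.31) per 10 months. Of the 31 claudins that passed the filter, 22 had a positive slope, beside 52% of all genes tested. The median slope was 0.12, beside 0.02 for all genes tested.

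Many claudins differed between the 24-month replicates. Of the 20 members, 8 stood at least 2-fold above and 2 at least 2-fold below replicate 1 in replicate 2, beside 20.1% and 20.4% of all genes at that level. Replicate 2 was the highest library for 13 of the 20 members and for 39.1% of all genes. Summed over the 38 members, claudins stood at 2014 CPM at 5 months, 2474 and 5657 CPM in 24 months replicates 1 and 2, and 2974 CPM at 30 months. They took 0.230%, 0.284%, 0.462% and 0.277% of all counts. The keratinocyte marker sum was also highest in replicate 2, at 24917, 33504, 58800 and 34755 CPM, of which krt5 alone was 78.5% to 84.6%. The claudin sum was 8.08%, 7.38%, 9.62% and 8.56% of the keratinocyte sum in the same order. Gene by gene, 4 of the 8 keratinocyte markers with at least 5 CPM were higher and 4 lower in replicate 2 than in replicate 1 (median log2 difference 0.04). Of the 20 claudins 16 were higher and 4 lower (median 0.93). Of all 13182 genes at that level 7350 were higher and 5832 lower (median 0.17). Lower in replicate 2 were epcam, cdh1 and evpla, at 337.1, 315.5 and 155.2 CPM, against 976.5, 341.8 and 408.2 CPM in replicate 1, and krt1-19e. The fibroblast marker sum over 7 genes, mostly from collagen genes, differed more. It was 42377 CPM at 5 months, 4781 and 63256 CPM in the 24-month replicates, and 7800 CPM at 30 months. Of these 7 genes 6 were higher in replicate 2 than in replicate 1 (median 2.58), with the collagen genes COL1A1 and COL1A2 among them. The members that are not collagens differed less. In replicates 1 and 2 DCN stood at 321.6 and 307.0 CPM, LUM at 171.8 and 288.9 CPM, and PDGFRA at 23.5 and 27.2 CPM. The part of keratinocyte and fibroblast content in the claudin values was not tested.

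Other genes of the tight junction had a pattern much like that of the claudins. The list holds scaffolds, occludins, junctional adhesion molecules and polarity proteins, and 46 genes of it were matched. Their summed level was 1906 CPM at 5 months, 1769 and 3637 CPM in 24 months replicates 1 and 2, and 2498 CPM at 30 months. oclna, an occludin of the junction strands, stood at 222.4, 165.4, 442.4 and 375.3 CPM, and TJP1, a scaffold that links claudins to actin, at 139.8, 170.3, 321.7 and 180.1 CPM. Between 24 and 5 months 34 of 45 tested partners were higher and 11 lower, with a median of 0.37. Between 30 and 24 months 18 were higher and 27 lower, with a median of −0.32. Of all genes tested 47.7% and 45% were higher in these comparisons, with medians of −0.06 and −0.14. None of the partners passed in edgeR in either comparison or in the age trend, also at an unadjusted p of 0.05. Over the 37 partners with at least 5 CPM the median log2 difference from 5 months was −0.11 in replicate 1 and 0.99 in replicate 2. For the 20 claudins these medians were −0.04 and 0.90, and for all genes at that level −0.06 and 0.11.

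**Figure D5:**
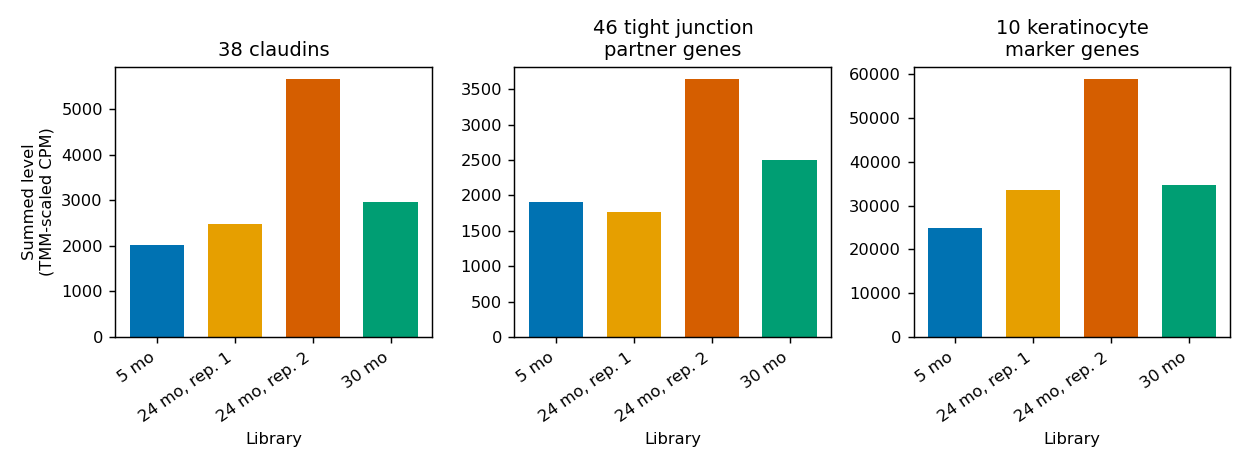
Bars give summed levels (TMM-scaled CPM, axes from 0) in the 4 libraries for 38 claudins, 46 tight junction partners and 10 keratinocyte markers. In each panel 24 months replicate 2 has the tallest bar, at 5657, 3637 and 58800 CPM.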

How the data were processed

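Per the submitters' processing notes, STAR 2.4.1d, featureCounts 1.4.6-p4, CASAVA 1.7 and GRCz10 were used; settings for annotation and strandedness were not given in the sources used here. Whole-read counts per Ensembl gene, as the authors deposited them, underlie every result. The authors' other table, labelled RPKM, was taken as a score: its values had been divided by a recycled list of 24 library totals, 0.391 to 2.05 times the correct one. Solving for that list gave gene lengths, and 99.9% of 1826 genes with values of at least 50 came within 0.1 base of a whole number. These lengths replaced the planned coding lengths.

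edgeR 4.0.16 (R 4.3.3) was fitted to the 4 libraries with TMM scaling, filterByExpr by group (21535 genes), glmQLFit and glmQLFTest on group means or on age, and Benjamini-Hochberg adjustment at 0.05 over all genes. Group means leave 1 residual degree of freedom, and the prior degrees of freedom were infinite, so the spread is pooled over all genes. P-values measure only the spread between these samples, which may be technical. Untested differences are log2 CPM with a prior count of 2. Alternatives were library totals (which move the all-gene median by −0.20 between 24 and 5 months), DESeq2 1.42.0, limma-voom (limma 3.58.1), no filter, and a replicate left out; the fit was tested on simulated data.

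Members, lists and the rule for genes given by library (a mean of at least 5 CPM, or an unadjusted p under 0.05) were chosen with earlier results of these data known. Counting may split or lose reads of near-identical claudin paralogues, and reads of overlapping genes may be mixed.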

Additional observations from a re-analysis of the deposited data

How the results depend on the processing

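No claudin was called in any of the 3 tests by edgeR, DESeq2 or limma-voom, with library totals alone or with no filter on low counts, nor in the age trend without either 24-month replicate, where the lowest adjusted p was 0.0782. Leaving out a replicate gave a median claudin difference between 24 and 5 months from −0.03 to 0.63, against 0.36 with both, and between 30 and 24 months from −0.48 to 0.35, against −0.37 with both; replicate 2 sets both directions. With a replicate left out, group means have no residual degrees of freedom, so these are values with no test. Over the other scalings and filters the first median ranged from 0.07 to 0.51 and the second from −0.44 to −0.18. For 22 described members, 396 fold changes and slopes were recomputed and 39 changed sign, none of them called; the cause was not tested. Of these, 21 of 88 were group comparisons with a replicate left out: without replicate 2, 10 members changed sign between 30 and 24 months (among them cldnb at 0.67, cldna at 0.42, cldne at 0.35, cldn1 at 1.17 and cldn8.2 at 0.71) and 7 between 24 and 5 months (among them cldnb at −0.16 and CLDN5 ENSDARG00000043716 at −0.44), and without replicate 1, 2 in each. The other 18 follow. With library totals alone they were, for 24 against 5 months, cldnf (−0.21) and cldn30 (−0.02), for 30 against 24 months CLDN11 (ENSDARG00000020031, −0.03), and for the trend cldn7b (−0.06), CLDN5 (ENSDARG00000014059, −0.06), cldnf (−0.06), cldn30 (−0.13) and cldnk (−0.02). With limma-voom they were cldnf (−0.08) and cldn30 (−0.03) between 24 and 5 months, cldn1 (0.18), cldn3d (0.61) and CLDN23 (0.18) between 30 and 24 months, and cldn30 in the trend (−0.06). With DESeq2 they were CLDN5 (ENSDARG00000014059, 0.07) and CLDN23 (0.02) between 24 and 5 months. With a replicate left out, the trend ranged from −0.14 (without replicate 2) to 0.10 for cldn30 and from −0.11 to 0.01 (without replicate 1) for CLDN23. The deposited table named for RPKM, in place of counts per length, left cldnb above cldni. No paired analysis was done, because nothing in the labels pairs a library with a library of another age.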
